A study of Mus musculus with 9 samples.

Results

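Of the 54146 genes in the deposited table, 6 are described here: Tgm2, F13a1, Thbs1, Vegfa, Igf1 and Hbegf, genes of secreted factors known from wound repair. They were chosen by name, and that choice was made with the differences between groups in these same libraries known. Their levels and differences are therefore given as a description, without a test. RNA was measured by sequencing in cells sorted as eosinophils from infiltrates of quadriceps muscle of adult mice, in 9 libraries that form 3 groups of 3. The IL5Tg group carries a transgene for interleukin-5, the cytokine that drives eosinophil production. The mdx group lacks functional dystrophin and is a model of Duchenne muscular dystrophy, in which muscle fibres degenerate and regenerate. The mdx_IL5Tg group combines both. Neither the promoter of the transgene nor the sex of the animals is given in the sources used here, and every sample has mdx as its strain label, the IL5Tg samples too, which goes against the titles from which the groups were taken. Sorting was for live cells that carried the surface proteins CD45 and Siglec-F but not CD11c, Gr1 or MHC class II. The replicates are called biological in the series' design text, and libraries are named here by group and by the S number of their column. Values by library stand in the order S7, S8, S9 for IL5Tg, S1, S2, S3 for mdx_IL5Tg and S4, S5, S6 for mdx.

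Wound repair begins with a clot and a provisional matrix, which are stabilised by transglutaminases, enzymes that join glutamine and lysine side chains of neighbouring proteins. Tgm2 encodes the tissue transglutaminase, which crosslinks fibronectin and other matrix proteins, and F13a1 encodes the catalytic A subunit of coagulation factor XIII, which crosslinks fibrin. Thbs1 encodes thrombospondin-1, a matrix glycoprotein that can activate latent TGF-beta and restrains angiogenesis through its receptors CD36 and CD47. Vegfa encodes the main angiogenic growth factor of endothelial cells, Igf1 a growth factor that promotes myoblast growth and muscle regeneration, and Hbegf a membrane-anchored ligand of the EGF receptor that is shed by metalloproteinases. In healing muscle several of these factors are also made by macrophages, fibroblasts, platelets or endothelial cells.

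The 2 transglutaminases share the catalytic cysteine by which they bind the glutamine substrate, and they are shown because they went opposite ways in mdx_IL5Tg against mdx. Below are 63 bases of coding sequence of each (GRCm38, GENCODE release M21 transcripts, both on the minus strand, across an exon junction), with the cysteine codon in capitals. It is codon 277 of Tgm2, from chr2:158129457-158131391, and codon 315 of F13a1, from chr13:36944028-36946503.
Tgm2: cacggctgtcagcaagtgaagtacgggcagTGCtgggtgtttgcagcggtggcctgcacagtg
F13a1: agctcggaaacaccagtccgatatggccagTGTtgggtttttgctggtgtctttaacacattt
The stretches are identical at 32 of 63 aligned bases. In the whole of Tgm2, 18.7% of the 50-base windows also occur in Gm20412 or Rprd1b. The assignment of reads from those windows is less certain, and the share is not a measure of error in the Tgm2 counts. Rprd1b had between 578 and 1458 counts in each library, against 79925 to 588400 for Tgm2. The share of such windows was 1.89% for Thbs1, 0.404% for F13a1 and 0.182% for Vegfa, and it was 0 for Igf1 and Hbegf.

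Promoters are shown for Vegfa and F13a1 because mdx was the lowest group for Vegfa and the highest for F13a1. Each line holds the 250 bases before an annotated start (RefSeq, GRCm38.p6, minus strand), at chr17:46032378-46032627 for Vegfa and chr13:37050245-37050494 for F13a1, neither of which overlaps an annotated exon. The table holds 2 windows for each of these genes, and those that overlap exons are not shown. Capitals mark GGGCGG, the core of the GC box.
Vegfa: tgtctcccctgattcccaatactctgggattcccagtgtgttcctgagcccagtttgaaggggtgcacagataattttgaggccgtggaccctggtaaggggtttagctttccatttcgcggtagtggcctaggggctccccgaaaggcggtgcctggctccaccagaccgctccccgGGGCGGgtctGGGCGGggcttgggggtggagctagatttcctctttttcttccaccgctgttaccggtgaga
F13a1: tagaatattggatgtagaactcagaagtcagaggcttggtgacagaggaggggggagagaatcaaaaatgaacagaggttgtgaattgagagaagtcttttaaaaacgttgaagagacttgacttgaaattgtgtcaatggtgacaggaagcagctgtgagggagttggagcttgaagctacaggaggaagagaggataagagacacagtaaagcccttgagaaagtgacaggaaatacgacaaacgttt
Vegfa's window is 59.2% G and C and F13a1's 42.8%, the 70.1 and 17.9 percentiles of 32851 windows of the same length. GGGCGG occurs at 2 places in the Vegfa window and in 32.7% of all windows, on either strand. The other motifs searched on both strands were ACGTG (the core of the HIF element, in 16.6% of windows), TGANTCA (AP-1, 6.75%), TTCNNNGAA (STAT, 7.02%) and TATAAA (the TATA box, 12.4%), and none of these letters are in either window shown. The other Vegfa window, at chr17:46025164-46025413 with 218 of its 250 bases in exons, holds 1 GGGCGG and 1 ACGTG. The other F13a1 window, at chr13:37049214-37049463 with 75 bases in exons, is 54.4% G and C (the 56.5 percentile) and holds none of the motifs. The sequence table had entries for 3 of the 6 genes, the third being Igf1.

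The labelled cell type was checked against markers. All 10 eosinophil markers listed (such as Siglecf, Ccr3 and Epx) were detected in every library, with a summed level of 5674 to 15900 CPM (counts scaled to library size, with TMM factors) in IL5Tg, 5078 to 5521 in mdx_IL5Tg and 2107 to 2910 in mdx. Markers of other cells were present too: 14 macrophage markers summed to 220.1 to 253, 353.1 to 491.8 and 704 to 1225 CPM in the same order. Most of that sum in IL5Tg and mdx_IL5Tg was Csf1r, at 189 to 230 and 307 to 348 CPM, beside 331 to 442 in mdx. The sum of 9 fibroblast markers was 949.7 to 2237, 740.2 to 2959 and 4347 to 10790 CPM, and that of 10 muscle fibre markers 5.815 to 8.6, 19.28 to 23.09 and 63.89 to 151.1 CPM. The sum of 9 neutrophil markers was highest in IL5Tg, at 417.5 to 1334, 103.7 to 158 and 11.95 to 335 CPM in the same order. The macrophage and muscle sums did not overlap between any pair of groups, and the eosinophil sum was lower and the fibroblast sum higher in all mdx libraries than in all others. The eosinophil markers differed among themselves. Epx was at 416 to 2020, 139 to 191 and 7.13 to 151 CPM in IL5Tg, mdx_IL5Tg and mdx. Ccr3 was at 827 to 1064, 1310 to 1441 and 809 to 1134 CPM, so that IL5Tg and mdx overlapped. Siglecf, Ccr3 and Alox15 were highest in all mdx_IL5Tg libraries. In RNA from bulk cells, a different share of a cell type and a different amount of RNA per cell cannot be told apart. Total counts were 26752780 to 58368283 per library, and the share of mitochondrial transcripts was 0.383% in mdx S5 and 1.278% to 2.292% in the others.

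The 6 factors did not move as 1 group. Compared with IL5Tg, all mdx_IL5Tg libraries were higher for Tgm2, Thbs1 and Vegfa (3 of 6), and the groups overlapped for F13a1, Igf1 and Hbegf. Among all 15886 genes tested, 35.9% had groups that did not overlap in this comparison, 19.4% with higher and 16.4% with lower levels in mdx_IL5Tg. Compared with mdx, mdx_IL5Tg was higher throughout for Tgm2 and Vegfa and lower throughout for F13a1 and Igf1. There, 42% of all genes did not overlap (18.8% higher and 23.2% lower). Compared with IL5Tg, mdx was higher throughout for Tgm2, F13a1, Thbs1 and Igf1 and lower for Vegfa, against 41.9% of all genes not overlapping (22.2% higher and 19.7% lower). The 3 comparisons share libraries, and because the genes were chosen on them nothing is read from these counts. The median log2 difference of the 6 was 1.09 in mdx_IL5Tg against IL5Tg, -0.076 against mdx and 1.09 in mdx against IL5Tg, beside medians of -0.050, -0.13 and 0.014 over all genes tested.

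**Figure D1:**
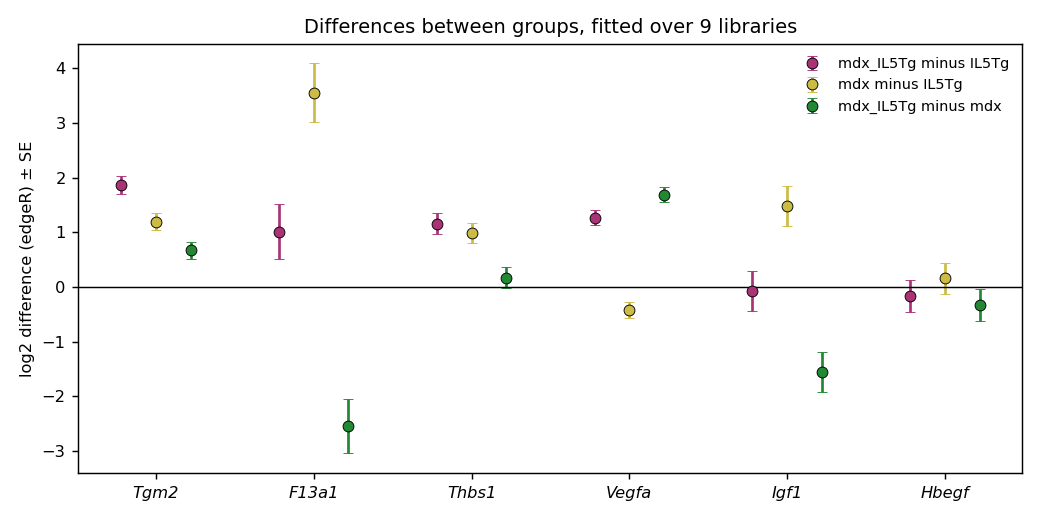
Log2 difference fitted by edgeR over 9 libraries (vertical axis) for each of the 6 genes (horizontal axis) in the 3 comparisons, which share libraries; error bars are the standard error. Tgm2, Thbs1 and Vegfa are at 1.87, 1.16 and 1.27 in mdx_IL5Tg minus IL5Tg, F13a1 is at 3.56 in mdx minus IL5Tg, and Hbegf lies between -0.32 and 0.16 in all 3.

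Per length, the order of the 6 genes spanned several orders of magnitude. In mdx_IL5Tg the mean level per kilobase of annotated exon was 6154 CPM for Thbs1, 2480 for Tgm2, 233 for Vegfa, 4.84 for Hbegf, 0.951 for F13a1 and 0.848 for Igf1. In IL5Tg the same values were 2752, 679, 96.4, 5.44, 0.473 and 0.896, and in mdx 5461, 1557, 72.0, 6.06, 5.56 and 2.49. Thbs1, Tgm2 and Vegfa thus ranked in this order in each group, while F13a1 stood below Igf1 in IL5Tg and above it in mdx.

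Tgm2 (ENSMUSG00000037820.15, GRCm38 chr2:158116402-158146436, minus strand, protein coding) was among the most abundant transcripts of the mdx_IL5Tg cells. Its levels were 2558, 3476 and 3356 CPM in IL5Tg, 11621, 11828 and 10838 in mdx_IL5Tg, and 7077, 6675 and 7769 in mdx. The 3 groups were fully separate, IL5Tg lowest, mdx in the middle and mdx_IL5Tg highest. The means were 3129.8 ± 499, 11429 ± 522 and 7174 ± 553 CPM (SD, n = 3) in IL5Tg, mdx_IL5Tg and mdx. The log2 difference was 1.87 (SE 0.16) for mdx_IL5Tg against IL5Tg, 1.20 (SE 0.16) for mdx against IL5Tg and 0.67 (SE 0.16) for mdx_IL5Tg against mdx. Scaled by library totals only, the last was 0.35. Tgm2 alone held 0.276% to 0.347% of all counts in IL5Tg, 0.939% to 1.09% in mdx_IL5Tg and 0.683% to 0.884% in mdx. By count it ranked between 24 and 26 among all genes in IL5Tg, between 5 and 7 in mdx_IL5Tg and between 6 and 11 in mdx. The macrophage, fibroblast and muscle sums were highest in mdx, and the macrophage and muscle sums were also higher in mdx_IL5Tg than in IL5Tg. The part of these cells in the Tgm2 differences was not tested.

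F13a1 (ENSMUSG00000039109.16, GRCm38 chr13:36867178-37050244, minus strand, protein coding) was low in both transgenic groups and highest in mdx. It was at 3.30, 2.04 and 4.21 CPM in IL5Tg, 7.19, 9.87 and 2.17 in mdx_IL5Tg, and 56.1, 32.6 and 23.7 in mdx. All mdx libraries were above all others, and the 2 transgenic groups overlapped because mdx_IL5Tg S3 lay within the IL5Tg range. These levels rest on 63 to 113 counts per library in IL5Tg, 83 to 392 in mdx_IL5Tg and 974 to 2681 in mdx. The means were 3.18 ± 1.09, 6.41 ± 3.91 and 37.5 ± 16.8 CPM (SD, n = 3) in IL5Tg, mdx_IL5Tg and mdx. The log2 difference was 3.56 (SE 0.53) for mdx against IL5Tg, -2.55 (SE 0.50) for mdx_IL5Tg against mdx and 1.01 (SE 0.50) for mdx_IL5Tg against IL5Tg, the last being 0.62 without mdx_IL5Tg S2. F13a1 is also a gene of resident macrophages, and the complement genes C1qa, C1qb and C1qc, which define that cell type, moved with it. Their summed level was 2.464, 1.201 and 3.877 CPM in IL5Tg, 20.28, 29.73 and 4.83 in mdx_IL5Tg, and 116.5, 87.52 and 57.25 in mdx. The sum of all 14 macrophage markers was also highest in mdx, at 704 to 1225 CPM beside 220.1 to 253 in IL5Tg and 353.1 to 491.8 in mdx_IL5Tg. The part of macrophages in the F13a1 differences was not tested.

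**Figure D2:**
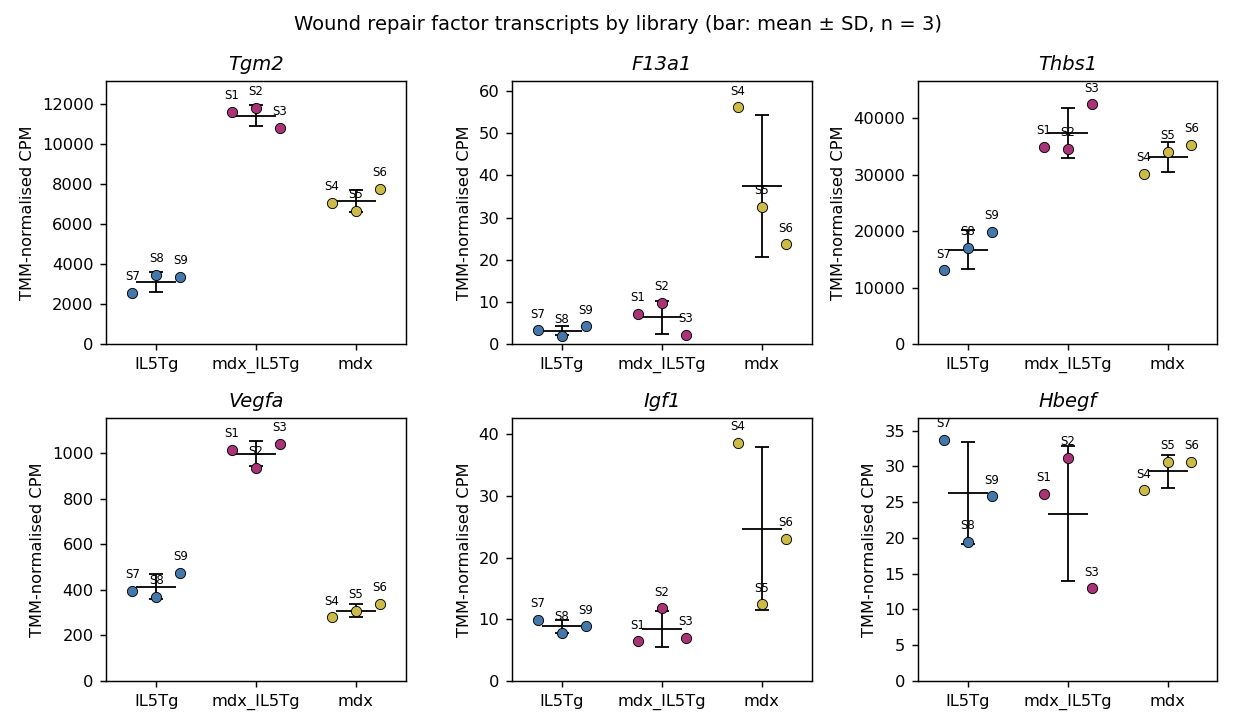
TMM-normalised CPM of each gene (vertical axes, from 0, each with its own scale) in the 3 groups (horizontal axes); points are libraries with their S number, the horizontal bar is the mean and the whisker the SD of 3 libraries. Tgm2 separates all 3 groups, Vegfa is high only in the mdx_IL5Tg libraries (936 to 1042 CPM), F13a1 and Igf1 are highest and most spread in mdx, and Hbegf overlaps throughout.

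Thbs1 (ENSMUSG00000040152.8, GRCm38 chr2:118111876-118127133, plus strand, protein coding) had the highest level per length of the 6 genes in all 3 groups. It stood at 13070, 17128 and 19948 CPM in IL5Tg, 35002, 34598 and 42522 in mdx_IL5Tg, and 30155, 34059 and 35287 in mdx. Both mdx groups lay above all IL5Tg libraries, and they overlapped with each other. The means were 16715 ± 3458, 37374 ± 4463 and 33167 ± 2680 CPM (SD, n = 3) in IL5Tg, mdx_IL5Tg and mdx. The log2 difference from IL5Tg was 1.16 (SE 0.19) in mdx_IL5Tg and 0.99 (SE 0.19) in mdx. Between mdx_IL5Tg and mdx it was 0.17 (SE 0.18), which ranged from -0.15 with library totals only to 0.31 without mdx_IL5Tg S2. By raw count Thbs1 ranked highest of all genes in all mdx_IL5Tg libraries and in mdx S4 and S6, and between 2 and 4 in the others. It held 1.41% to 2.00% of counts in IL5Tg, 3.04% to 3.68% in mdx_IL5Tg and 3.46% to 4.01% in mdx. Thrombospondin-1 is best known from platelet granules. The platelet genes Pf4, Ppbp, Gp9, Gp1ba and Tubb1 together reached 0.783 to 1.44 CPM in IL5Tg, 1.62 to 3.42 in mdx_IL5Tg and 5.31 to 9.87 in mdx. Most of this rise was Pf4 alone, at 0.065 to 0.352, 0.600 to 1.91 and 3.93 to 9.07 CPM in the same order. Ppbp overlapped between the groups, at 0.522 to 0.992, 0.809 to 1.24 and 0.803 to 1.34 CPM. The whole list of 12 summed to 93.9 to 109.8 CPM in IL5Tg, 73.09 to 96.6 in mdx_IL5Tg and 35.13 to 68.54 in mdx, the lowest group, with Treml1 at 0 in all mdx_IL5Tg libraries. Most of that sum was the integrin gene Itga2b, at 102, 77.7 and 41.5 CPM on average in the same order, and the part of platelets in the Thbs1 differences was not tested.

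Vegfa (ENSMUSG00000023951.17, GRCm38 chr17:46016993-46032369, minus strand, protein coding) was the one factor of the 6 that was high in mdx_IL5Tg and low in both other groups. Its levels were 395, 370 and 474 CPM in IL5Tg, 1014, 936 and 1042 in mdx_IL5Tg, and 279, 308 and 338 in mdx. The groups did not overlap, mdx being lowest, IL5Tg next and mdx_IL5Tg highest. The means were 413 ± 54.3, 997 ± 54.6 and 309 ± 29.5 CPM (SD, n = 3) in IL5Tg, mdx_IL5Tg and mdx. The log2 difference was 1.27 (SE 0.14) for mdx_IL5Tg against IL5Tg, 1.69 (SE 0.14) for mdx_IL5Tg against mdx and -0.42 (SE 0.14) for mdx against IL5Tg. In mdx_IL5Tg the macrophage and muscle sums lay between those of IL5Tg and mdx, and the fibroblast and endothelial sums overlapped with those of IL5Tg. The sum of 8 monocyte markers was 493.7 to 699.8 CPM in IL5Tg, 696.6 to 845.2 in mdx_IL5Tg and 389 to 504.2 in mdx, most of it from Plac8. Against IL5Tg, 1 of these markers rose in mdx_IL5Tg and 1 fell, with a median log2 difference of 0.39 over the list. Against mdx, 1 rose and 3 fell, with a median of -2.02. The part of monocytes or of the other cells in the Vegfa differences was not tested.

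Igf1 (ENSMUSG00000020053.18, GRCm38 chr10:87858265-87937042, plus strand, protein coding) was low in the transgenic groups and higher, with a wide spread, in mdx. It was at 9.92, 7.85 and 8.83 CPM in IL5Tg, 6.42, 11.8 and 7.02 in mdx_IL5Tg, and 38.6, 12.4 and 23.0 in mdx. The lowest mdx library, S5, was just above the highest transgenic one, mdx_IL5Tg S2. The means were 8.87 ± 1.03, 8.40 ± 2.92 and 24.7 ± 13.2 CPM (SD, n = 3), from 237 to 467 counts per transgenic library and 371 to 1845 per mdx library. The log2 difference was 1.48 (SE 0.37) for mdx against IL5Tg and -1.56 (SE 0.37) for mdx_IL5Tg against mdx. Both depended on mdx S4, without which they were 0.97 and -0.997. Between mdx_IL5Tg and IL5Tg the difference was -0.080 (SE 0.37), with the opposite sign without IL5Tg S7 (0.057), mdx_IL5Tg S1 (0.13) or mdx_IL5Tg S3 (0.091). Igf1 is made by macrophages and fibroblasts, whose marker sums were also highest in mdx. The part of either cell type was not tested.

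**Figure D3:**
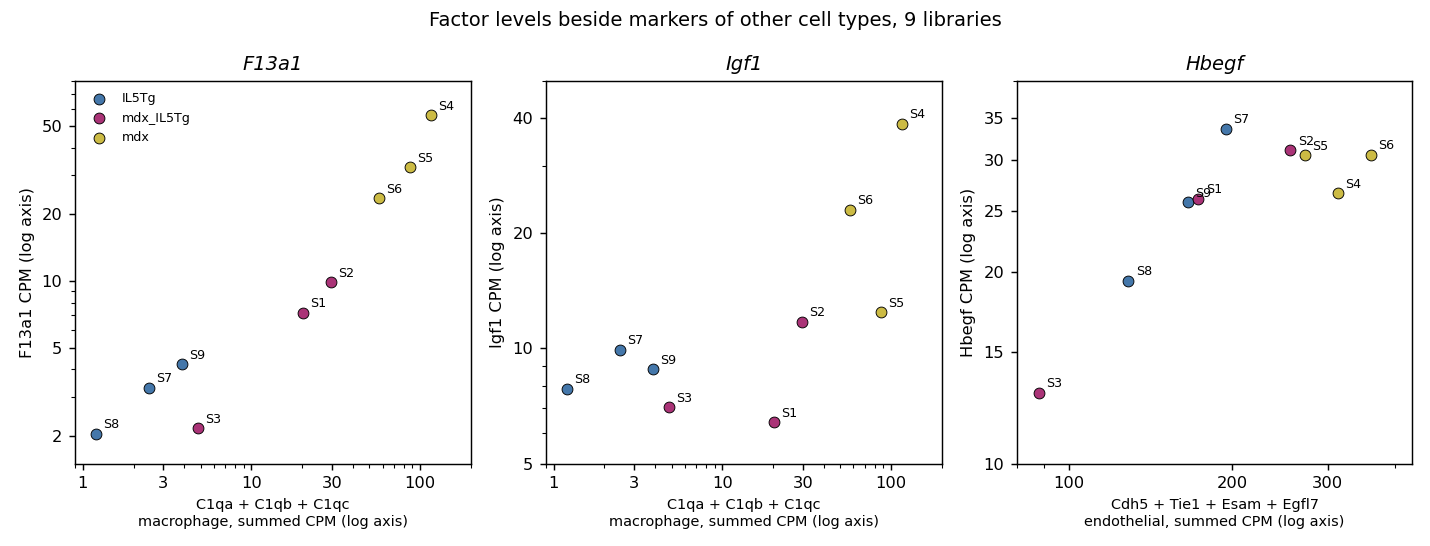
Level of F13a1 and Igf1 against the summed level of the macrophage genes C1qa, C1qb and C1qc, and of Hbegf against the summed level of the endothelial genes Cdh5, Tie1, Esam and Egfl7, in CPM on log axes; points are the 9 libraries with their S numbers, coloured by group. F13a1 and Igf1 are both highest in mdx S4 (56.1 and 38.6 CPM), where the complement sum is highest too (116.5 CPM), and Hbegf and the endothelial sum are both lowest in mdx_IL5Tg S3 (12.9 and 88.06 CPM). The endothelial genes summed are part of a list of 9 markers that differed among themselves.

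Hbegf (ENSMUSG00000024486.5, GRCm38 chr18:36504927-36515805, minus strand, protein coding) was the factor whose 3 groups overlapped in every comparison. It was at 33.7, 19.4 and 25.8 CPM in IL5Tg, 26.1, 31.1 and 12.9 in mdx_IL5Tg, and 26.7, 30.6 and 30.6 in mdx. The spread within the transgenic groups was larger than any difference between group means, which were 26.3 ± 7.14, 23.4 ± 9.41 and 29.3 ± 2.29 CPM (SD, n = 3) in IL5Tg, mdx_IL5Tg and mdx. The log2 difference was -0.17 (SE 0.29) for mdx_IL5Tg against IL5Tg, -0.32 (SE 0.29) against mdx and 0.16 (SE 0.29) for mdx against IL5Tg. None of the 3 kept its sign when single libraries were left out: without mdx_IL5Tg S3 the differences of mdx_IL5Tg were 0.18 and 0.068, without IL5Tg S7 the comparison with IL5Tg was 0.10, and without IL5Tg S8 mdx against IL5Tg was -0.060. The lowest library, mdx_IL5Tg S3, also had the lowest fibroblast sum (740.2 CPM) and the lowest summed level of the endothelial genes Cdh5, Tie1, Esam and Egfl7. Their sum was 194.3, 128.6 and 165.7 CPM in IL5Tg, 173.2, 256.0 and 88.06 in mdx_IL5Tg, and 313.2, 272.3 and 359.9 in mdx. All 9 endothelial markers were detected in every library, summing to 537.6 to 750.5 CPM in IL5Tg, 336.2 to 779.8 in mdx_IL5Tg and 779.3 to 882.9 in mdx. They differed among themselves. Vwf was at 182 to 285, 78.4 to 202 and 130 to 197 CPM in the same order. Emcn was at 14.6 to 25.3, 6.61 to 16.3 and 5.29 to 21.5 CPM. Pecam1 and Tek overlapped between IL5Tg and mdx, while Cldn5 was higher in all mdx libraries than in all IL5Tg ones. The part of endothelial cells or fibroblasts in the Hbegf levels was not tested.

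Each factor was next set beside its relatives, with levels per kilobase of annotated exon. Tgm2 made up 98.3% to 99.8% of the summed level of the transglutaminases Tgm1, Tgm2, Tgm3, Tgm5 and F13a1 in the 9 libraries, and F13a1 0.0136% to 0.539%. The keratinocyte-type enzyme Tgm1 took 0.475% to 1.62% in IL5Tg and 0.0296% to 0.059% in mdx. Thbs1 made up 97.9% to 99.9% of the 5 thrombospondins, with Thbs4, a form of tendon and muscle matrix, reaching 1.80% in mdx S4. Vegfa held 95.0% to 99.4% of the VEGF family ligands, next to placental growth factor (Pgf) at 0.213% to 2.86%. Hbegf held 77.3% to 89.5% of the EGF family ligands, in which neuregulin-1 (Nrg1) took 0.715% to 12.9% and amphiregulin (Areg) 0% to 9.61%. Igf1, in contrast, was the lesser ligand of its family: it made up 13.3% to 27.5% and Igf2, the fetal-type growth factor, 72.5% to 86.7%. Igf2 itself was at 15.2 ± 2.89, 17.7 ± 6.68 and 47.6 ± 11.9 CPM (SD, n = 3) in IL5Tg, mdx_IL5Tg and mdx.

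**Figure D4:**
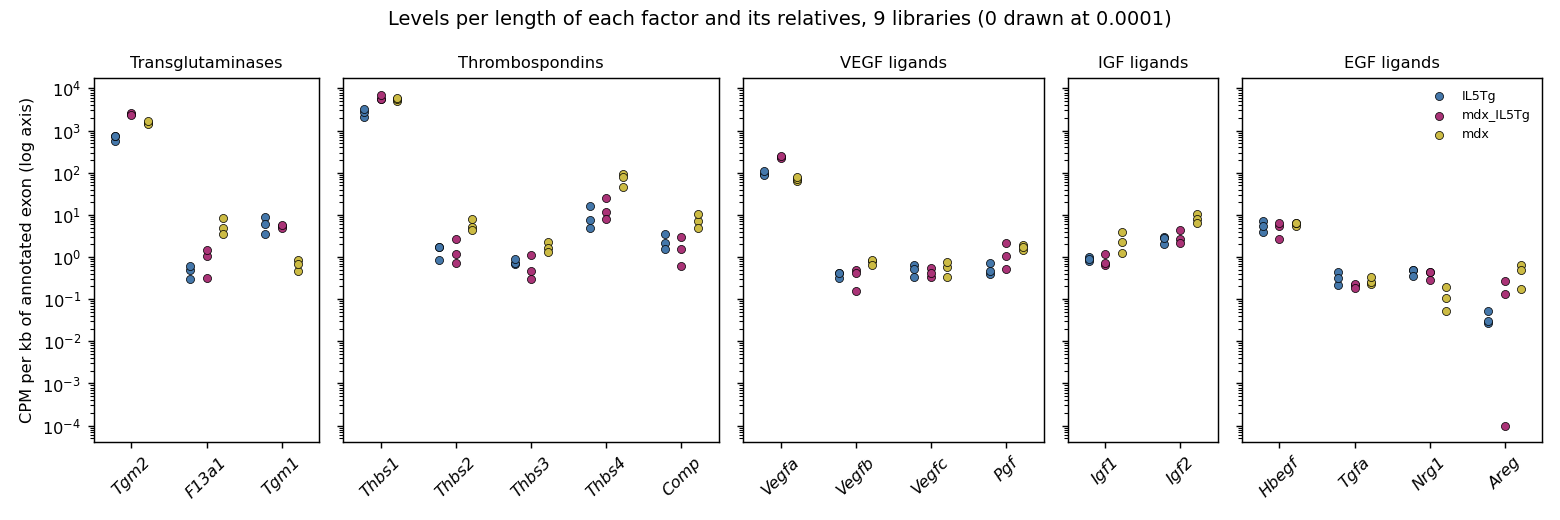
Level per kilobase of annotated exon (CPM per kb, log axis) of each factor and relatives in its family; each point is 1 of 9 libraries, coloured by group, and a level of 0 is drawn at 0.0001. Tgm2, Thbs1 and Vegfa stand above their relatives in all libraries, while Igf1 lies below Igf2 in all of them.

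The ligands' receptors, substrates and processing enzymes, and other secreted repair genes, were tested in the same fit from 7 lists that leave out the 6 factors. These lists were also chosen with earlier results of these data known. The shares called and the p-values below therefore describe the listed genes and are no independent test of the lists. Of 121 genes listed, 99 could be tested. In mdx_IL5Tg against IL5Tg, 12 of them rose and 0 fell (12.1%, edgeR adjusted p under 0.05), beside 7.22% of all genes called (4.35% higher and 2.87% lower). The median log2 difference was 0.17 over the 99 and -0.050 over all genes. The number called dropped to 6 without mdx_IL5Tg S1, and it was 19 when mdx_IL5Tg S3 or mdx S5 was left out, 21 with DESeq2 and 23 with voom quality weights. For genes called lower the count was 0 with limma voom, and 2 with DESeq2 and with quality weights; 3 were lower at an unadjusted p under 0.05.

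The genes around Tgm2, Thbs1, Vegfa and Igf1 showed few differences between mdx_IL5Tg and IL5Tg, and targets of HIF showed more. In edgeR 0 of 10 transglutaminase partners, 0 of 14 thrombospondins and receptors, 0 of 8 VEGF relatives and receptors and 0 of 16 IGF genes passed. At an unadjusted p under 0.05 the numbers were 2, 2, 1 and 2, limma voom called 0 in each list, DESeq2 called 2, 1, 0 and 1, and voom with quality weights 2, 1, 1 and 2. Without mdx_IL5Tg S3 edgeR called 2 transglutaminase partners and 1 VEGF gene higher, and without mdx S5 1 transglutaminase partner and 1 thrombospondin gene higher and 1 IGF gene lower. Of 13 target genes of HIF, the oxygen-sensing transcription factor family, 7 rose and 0 fell, with a median log2 difference of 0.65. At an unadjusted p under 0.05, or with DESeq2 or either voom fit, 0 were lower. Vegfa is known as a target of HIF too, and the part of HIF in the Vegfa differences was not tested. Pdk1, which restrains pyruvate entry into mitochondria, rose by 1.82 (SE 0.17, edgeR adjusted p = 6.5e-04), from 8.02 ± 0.339 to 28.2 ± 4.08 CPM (SD, n = 3). The HIF prolyl hydroxylase Egln1 rose by 1.90 (SE 0.18, edgeR adjusted p = 6.7e-04), from 17.1 ± 3.53 to 63.7 ± 9.71 CPM. Bnip3, Egln3 and Pgk1 rose by 1.58, 1.68 and 1.19, and these 5 calls held under every alternative run. Among other repair genes 3 of 25 rose, 1 without mdx_IL5Tg S1 and 6 without mdx_IL5Tg S3. Of these, Grn and Tgfb1 rose by 0.94 and 0.74, but neither call held without mdx_IL5Tg S1 (edgeR adjusted p = 0.051 and 0.075). In the EGF list 2 of 13 rose, the sheddase Adam12 (1.83) and the tetraspanin Cd9 (0.93), which binds the HB-EGF precursor. Without IL5Tg S7, mdx_IL5Tg S1 or mdx_IL5Tg S2 neither passed (edgeR adjusted p from 0.063 to 0.11), and Adam12 also did not without IL5Tg S8 (edgeR adjusted p = 0.060).

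Against mdx, more of the partner genes fell than rose in mdx_IL5Tg, while of the HIF targets more rose. In this comparison 16 of the 99 rose and 44 fell (60.6%), beside 21.6% of all genes called (10.1% higher and 11.5% lower), and the median was -0.91 against -0.13 over all genes. The number of lower calls dropped with libraries left out: 11 fell without mdx_IL5Tg S1, 17 without mdx S4, 25 without mdx_IL5Tg S3, 27 without mdx S6 and 27 in a fit of only these 2 groups. Lower calls among all genes dropped as well, from 1830 to 429 without mdx_IL5Tg S1 and 600 without mdx S4. They were 945 without mdx_IL5Tg S3 and 916 without mdx S6. The macrophage and fibroblast sums were lower in mdx_IL5Tg than in mdx as well, and their part in these differences was not tested. Of HIF targets 9 of 13 rose and 1 fell (median 1.21), among them Bnip3 by 2.06 (SE 0.19, edgeR adjusted p = 6.8e-05), Ldha by 1.53, Egln3 by 1.94, Ero1l by 1.67 and Pgk1 by 1.45, and these 5 calls held under every alternative. The 1 lower call was lost in 8 of the 9 fits that left out a library, mdx_IL5Tg S2 being the exception.

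Among the partners of the transglutaminases 2 of 10 rose and 5 fell, the latter 2 without mdx_IL5Tg S1. Tgm1 rose by 3.02 (SE 0.34, edgeR adjusted p = 3.0e-04), from 1.44 to 2.71 CPM per library in mdx to 15.2 to 18.04 in mdx_IL5Tg, and the substrate Serpinb2 rose by 1.44 (SE 0.15, edgeR adjusted p = 1.4e-04), from 975 ± 80.4 to 2636 ± 348 CPM. Lrp1, an endocytic receptor that takes up transglutaminase 2, fell by 2.30 (SE 0.34, edgeR adjusted p = 0.0014), from 253 ± 54.6 to 51.3 ± 23.2 CPM, and the fibronectin receptor subunit Itga5 fell by 0.96. These 4 calls held under every alternative. In the thrombospondin list 1 of 14 rose and 8 fell, but the number that fell was 0 without mdx_IL5Tg S1, 1 without mdx S4, 2 without mdx_IL5Tg S3, 3 with no filter and 5 without IL5Tg S9 or mdx S6. The number that rose was 2 when any IL5Tg library was left out. The riser was Cd47, a receptor of thrombospondin-1, by 1.19 (SE 0.21, edgeR adjusted p = 0.0040), from 138 ± 42.2 to 315 ± 23.5 CPM, under every alternative.

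Of 8 VEGF relatives and receptors 4 fell and 0 rose, the latter also at an unadjusted p under 0.05 and with DESeq2 and both voom fits. Kdr, the main signalling receptor, was at 70.8 ± 4.87 CPM in mdx and 30.5 ± 13.1 in mdx_IL5Tg. Flt1, the receptor that also acts as a decoy, was not called (log2 -0.87, SE 0.29, edgeR adjusted p = 0.052), and its groups overlapped. Without mdx_IL5Tg S1 the number that fell was 0. The endothelial marker Cdh5 was at 50.3 to 141 CPM in mdx_IL5Tg and 106 to 231 in mdx. The 9 endothelial markers summed to 336.2 to 779.8 and 779.3 to 882.9 CPM, with a median log2 difference of -0.78. Of these 9 markers 0 were called in edgeR in either direction. The part of endothelial cells in the receptor levels was not tested. Of 16 IGF genes 1 rose and 9 fell, the latter being 4 without mdx_IL5Tg S1, mdx_IL5Tg S3 or mdx S4 and 5 without IL5Tg S9, and the former 0 with library totals only. Igf2 fell by 1.43 (SE 0.28, edgeR adjusted p = 0.0058), the clearance receptor Igf2r by 0.90, the adaptor Irs1 by 2.04 and the binding protein Igfbp5 by 1.16, and these 4 held under every alternative. Igf1r, the receptor of both ligands, was at 241 ± 30.9, 230 ± 28.3 and 222 ± 9.80 CPM in IL5Tg, mdx_IL5Tg and mdx, with log2 differences between -0.12 and 0.051. In the EGF list 2 of 13 rose and 3 fell. Egfr, the receptor of HB-EGF, fell by 1.95 (SE 0.35, edgeR adjusted p = 0.0040), from 17.4 ± 5.88 to 4.51 ± 2.22 CPM, Adam12 fell by 1.96 and Nrg1 rose by 1.71, under every alternative. The number that rose was 1 without mdx S4, mdx S6 or mdx_IL5Tg S1. Of 25 other repair genes 1 rose and 14 fell. Without mdx S6 2 rose, and the number that fell was 2 without mdx_IL5Tg S1, 3 without mdx S4, 7 without mdx_IL5Tg S3 or mdx S6 and 9 without IL5Tg S9. Plaur, the urokinase receptor, rose by 1.89 (SE 0.22, edgeR adjusted p = 3.2e-04), from 290 ± 94.4 to 1078 ± 71.6 CPM, and Tgfb2 fell by 1.91, both under every alternative.

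**Figure D5:**
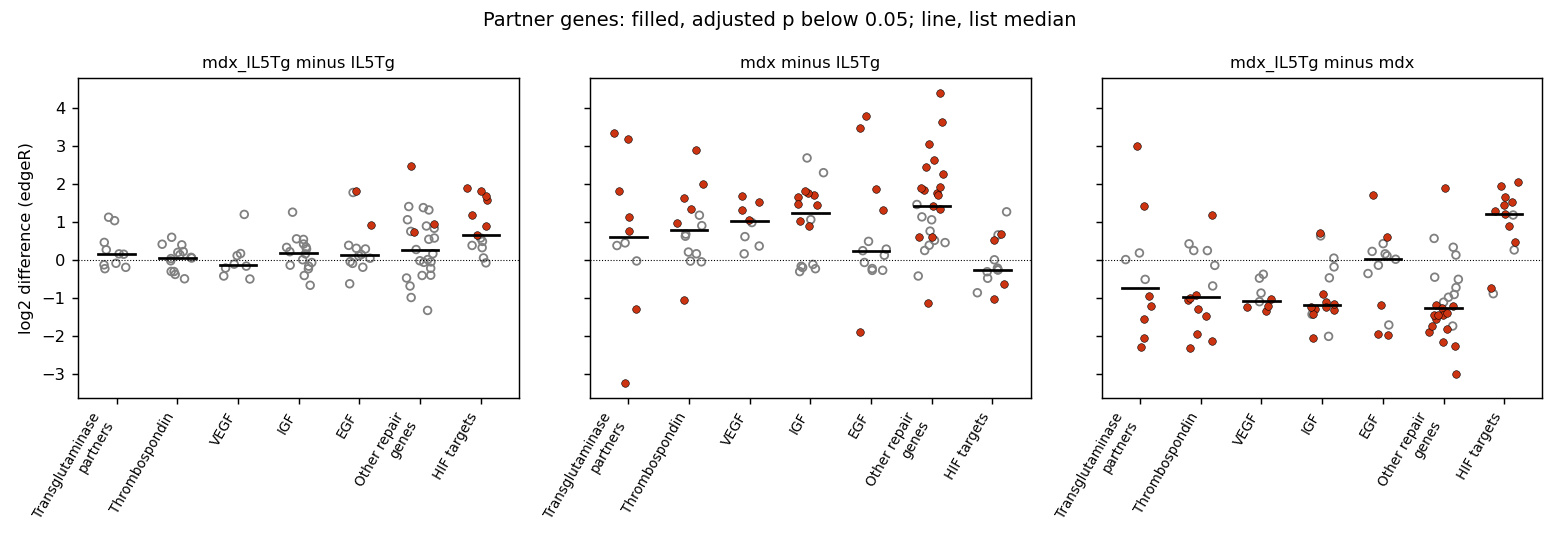
Log2 difference fitted by edgeR (vertical axis) of each tested gene in 7 lists (horizontal axis) in the 3 comparisons; filled points have an adjusted p under 0.05, open points do not, and the black line is the list median. HIF targets have the highest medians in both comparisons of mdx_IL5Tg (0.65 and 1.21), and the medians of the other repair genes are 1.41 in mdx minus IL5Tg and -1.26 in mdx_IL5Tg minus mdx.

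In mdx against IL5Tg, 43 of the 99 genes rose and 7 fell (50.5%), beside 20.8% of all genes called (11.8% higher and 8.96% lower), with medians of 0.76 and 0.014. Of the 50 calls, 30 held under every alternative in which the gene had a value, which for Pdgfc was 17 of 18 fits. The riser with the largest change among these 30 was Spp1, osteopontin, which rose by 4.40 (SE 0.66, edgeR adjusted p = 0.0023), from 11.6 ± 2.86 to 245 ± 156 CPM. Adam12 rose by 3.79, Lrp1 by 3.34, fibronectin (Fn1) by 3.19 and Thbs4 by 2.91, while Tgm1 fell by 3.25, Nrg1 by 1.90, Serpinb2 by 1.28 and Cd47 by 1.05. By list, 5 of 10 transglutaminase partners rose and 2 fell, 5 of 14 thrombospondin genes rose and 1 fell, and 4 of 8 VEGF and 8 of 16 IGF genes rose. In both latter lists 0 fell, also at an unadjusted p under 0.05 and with DESeq2 and both voom fits. In the EGF list 4 of 13 rose and 1 fell, and of 25 other repair genes 15 rose and 1 fell. The HIF targets were divided, with 2 of 13 higher, 2 lower and a median of -0.26. Leaving out single libraries reduced these counts of higher genes to as few as 3 (transglutaminase, without IL5Tg S8), 2 (thrombospondin, without IL5Tg S8 or S9, and 3 without mdx S4), 2 (VEGF, without IL5Tg S8, IL5Tg S9 or mdx S4), 2 (EGF, without any IL5Tg library or mdx S4) and 0 (HIF, without IL5Tg S7, IL5Tg S8 or mdx S6, and 1 without any other library but mdx_IL5Tg S3). The HIF genes that fell numbered 1 without IL5Tg S9 or mdx S4, and the EGF genes that fell numbered 2 without IL5Tg S7. The macrophage, fibroblast and muscle sums were also higher in mdx, and their part was not tested.

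The genes whose log2 CPM over the 9 libraries was most like that of each factor were sought among 11073 genes with a mean of at least 1 CPM. The values of Pearson's r describe 3 separated groups of 3 libraries and carry no test. Tgm2 was closest to Zfyve28 (r = 0.99), Ik (0.986) and the integrin gene Itgax (0.986), which was at 41.25 to 55.62 CPM in IL5Tg, 189.8 to 258.8 in mdx_IL5Tg and 101.8 to 137.8 in mdx. Itgax encodes CD11c, the surface protein against which the sort selected. Thbs1 was closest to Cd101 (0.972), an inhibitory surface receptor, Ppard (0.969) and Adgrg5 (0.969), and Vegfa to Mirt2 (0.986), Elob (0.986) and Hsbp1 (0.984). Among the genes closest to F13a1 were Lrp1 (0.99) and Snx9 (0.99). Lrp1 was at 18.08 to 31.91 CPM in IL5Tg, 26.24 to 71.93 in mdx_IL5Tg and 207.3 to 313.4 in mdx. Igf1 was closest to Ifi207 (0.986), Bicc1 (0.984) and the matrix proteoglycan gene Vcan (0.981), which was at 56.63, 17.27 and 40.53 CPM in mdx, the same order as Igf1. Hbegf was closest to St6galnac2 (0.992), Mill2 (0.95) and Ly6c1 (0.946), the last a gene of endothelial cells among others.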

How the data were processed

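RNA-seq of 9 libraries of sorted mouse eosinophils was used, 3 per group. The values are expected counts, which the authors deposited unnormalised as 1 table of genes by libraries. Tools named in the submitters' processing notes are RSEM 1.3.0, STAR 2.5.3, cutadapt 2.10 and limma, with mm10 as the build; the annotation, the settings and the use of strand were not given in the sources used here. Reads that fit several genes are divided by estimation in RSEM, so genes with shared sequence are less certain, and overlapping genes cannot be separated without strand. Values that were not whole (6.03%) were rounded. Columns carry an S number that could be tied to a group but not to a numbered replicate. The closest libraries of a group still differed by far more than sampling noise (27.79 or more for chi-square per gene).

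The filter on low counts was filterByExpr of edgeR with a minimum count of 10, and 15886 genes passed it, including all 6 factors. Libraries were scaled with TMM factors, 0.8665 to 1.148. Group differences were fitted with edgeR 4.0.16 (quasi-likelihood, robust; R 4.3.3), all 9 libraries in 1 fit, with Benjamini-Hochberg adjustment over all genes and a threshold of 0.05. Levels are TMM-normalised CPM. The script was tested on simulated data. The 6 factors, the lists of other genes and the rule for named genes were chosen with earlier results of these data known. By that rule, of each list up to 5 genes past the threshold by smallest p, ligands and receptors of the families, and the 3 genes most like each factor could be named; names of predicted models were left out of the last, and some genes that the rule allows are not reported here. Positions come from GENCODE release M21, which held 54079 of the 54146 gene identifiers without version. Per-length levels divide by the annotated exon bases of all transcripts of a gene. Alternatives were each library left out, a fit of only the groups compared, a filter of 50 counts in 3 libraries or none, scaling by RLE factors or by library totals only, DESeq2 1.42.0, and voom of limma 3.58.1 with or without quality weights.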

Additional observations from a re-analysis of the deposited data

How the results depend on the processing

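No paired analysis was possible because the columns carry no replicate numbers. Partner genes called in mdx_IL5Tg against IL5Tg numbered 12, and 21 with DESeq2 and 23 with voom quality weights. All genes called there numbered 1147, and 2464 with DESeq2, 1816 with only the groups compared and 4297 with voom quality weights; voom quality weights called 6939 against mdx (3433 in the fit reported) and 5504 in mdx against IL5Tg (3298). With single libraries left out, partner genes called ranged from 6 to 19, 25 to 62 and 34 to 57 in mdx_IL5Tg against IL5Tg, mdx_IL5Tg against mdx and mdx against IL5Tg, and all genes called from 110 to 2641, 1521 to 4057 and 1961 to 3837. Library totals only moved the median of all genes to -0.27, -0.46 and 0.12 in the same order, and the share of higher genes among those called from 60.2%, 46.7% and 56.8% to 24.1%, 15.7% and 70.7%. Over the 17 alternatives the sign of a factor's difference changed only for Hbegf in all 3 comparisons, Igf1 in mdx_IL5Tg against IL5Tg and Thbs1 in mdx_IL5Tg against mdx, in none of which the groups were separate. Of 12, 60 and 50 partner calls, 6, 22 and 30 held under every alternative in which the gene had a value. With 3 libraries per group, small differences such as those of Hbegf cannot be resolved.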
